A study of Homo sapiens with 10 samples.

Results

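The CLK genes CLK1, CLK2, CLK3 and CLK4 encode the CDC2-like kinases of human cells, and this account follows these 4 genes among the 59204 human genes listed in a SLAM-seq study of K562, a chronic myeloid leukemia line with erythroid features. The members were taken by symbol from the tables of labelled and of all reads, and all 4 were found. None was picked by a measured value, but earlier results of these data were known when they were chosen. The 5 groups had 2 libraries each: actinomycin D at 1 µg/mL, AZ-5576 at 1 µM, JQ1 at 1 µM, A-485 at 1 µM, and DMSO as the vehicle. Every culture was exposed for 2 h, with 100 µM 4-thiouridine in the last 1 h, so RNA made in that hour carried the label. Actinomycin D binds DNA and blocks elongating RNA polymerases. AZ-5576 inhibits CDK9, the kinase that frees paused RNA polymerase II. JQ1 displaces BET bromodomain proteins from chromatin, and A-485 inhibits the acetyltransferases p300 and CBP. Every drug is set against the same DMSO libraries. The labels do not say whether the libraries of a group came from separate cultures, so p-values measure the spread between these libraries, which may be technical.

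CLK proteins are dual-specificity kinases of the nucleus. They phosphorylate serine and arginine rich splicing factors (SR proteins) and so release them from nuclear speckles, the stores of splicing factors, toward sites of transcription. CLK1 and CLK4 are close relatives, and both genes are known to give transcripts with retained introns that stay in the nucleus and are spliced on demand. The library kit reads the 3′ end of polyadenylated RNA, so the spliced forms of the CLK genes were not measured here.

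In GENCODE release 29 on GRCh38, CLK1 (ENSG00000013441) lies at chr2:200853009-200864744 on the minus strand and CLK2 (ENSG00000176444) at chr1:155262868-155278491 on the minus strand. CLK3 (ENSG00000179335) lies at chr15:74598500-74645414 on the plus strand and CLK4 (ENSG00000113240) at chr5:178602664-178630615 on the minus strand. The promoters are shown because the drugs act on transcription from them. They were taken from RefSeq on GRCh38.p14, each with 250 bases before and 50 bases after the annotated start and read in the direction of the gene. The windows are chr2:200864609-200864908 for CLK1, chr1:155273455-155273754 for CLK2, chr15:74615586-74615885 for CLK3 and chr5:178627001-178627300 for CLK4. Capitals mark the letters that matched any of 7 motifs on either strand.
CLK1 promoter: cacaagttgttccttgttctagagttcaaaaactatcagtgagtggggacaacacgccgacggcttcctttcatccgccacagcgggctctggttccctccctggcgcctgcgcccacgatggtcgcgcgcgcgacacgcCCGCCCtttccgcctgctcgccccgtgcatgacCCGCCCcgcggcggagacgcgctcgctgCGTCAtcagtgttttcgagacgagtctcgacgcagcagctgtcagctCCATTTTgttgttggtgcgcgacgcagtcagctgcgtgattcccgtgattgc
CLK2 promoter: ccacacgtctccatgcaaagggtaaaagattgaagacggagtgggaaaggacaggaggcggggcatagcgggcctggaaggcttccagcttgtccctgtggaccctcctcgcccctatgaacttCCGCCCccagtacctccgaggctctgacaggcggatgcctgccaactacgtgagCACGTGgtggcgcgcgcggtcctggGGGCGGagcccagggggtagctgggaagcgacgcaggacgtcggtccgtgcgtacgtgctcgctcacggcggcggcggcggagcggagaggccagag
CLK3 promoter: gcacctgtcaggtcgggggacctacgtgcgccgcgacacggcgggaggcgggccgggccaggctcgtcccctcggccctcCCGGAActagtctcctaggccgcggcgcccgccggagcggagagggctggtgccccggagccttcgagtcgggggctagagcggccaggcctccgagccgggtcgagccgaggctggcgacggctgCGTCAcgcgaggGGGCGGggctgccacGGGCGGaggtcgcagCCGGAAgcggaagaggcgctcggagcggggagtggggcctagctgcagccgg
CLK4 promoter: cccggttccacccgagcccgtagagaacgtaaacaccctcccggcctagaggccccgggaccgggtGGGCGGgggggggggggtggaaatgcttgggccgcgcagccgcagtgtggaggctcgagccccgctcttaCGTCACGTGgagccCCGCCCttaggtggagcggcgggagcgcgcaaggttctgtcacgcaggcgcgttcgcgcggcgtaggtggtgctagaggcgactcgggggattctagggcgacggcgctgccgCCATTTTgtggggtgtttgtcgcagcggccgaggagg

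The motifs searched were the CCAAT box, the GC box (GGGCGG), the E-box (CACGTG), the core of the cyclic AMP response element, CRE (CGTCA), the TATA box (TATAAA), the YY1 core (CCATNTT) and the ETS core (CCGGAA). Each of these windows held 2 matches to the GC box, which 45.0% of the 35116 RefSeq windows of this length hold. None of the printed windows held the TATA box or the CCAAT box, which 11.5% and 34.6% of all windows hold. The E-box was found in the windows of CLK2 and CLK4 and in 7.26% of all windows. The CRE core was found in the windows of CLK1, CLK3 and CLK4 and in 24.6% of all windows, and in CLK4 it overlaps the E-box. The YY1 core was found in the windows of CLK1 and CLK4 and in 15.6% of all windows. The ETS core was found 2 times in the window of CLK3 and is held by 17.2% of all windows. RefSeq gave CLK1 and CLK3 a further window each, which is not printed. That of CLK1 held the same motifs as the printed window, while that of CLK3 held 2 matches to the CCAAT box and none to the other motifs. These matches describe letters and not binding.

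The 3′ ends matter for another reason, since the reads come from them and a label is seen only where the RNA has a uridine. In the last 250 bases of the principal transcript, T made up 45.6% of CLK1, 30.0% of CLK2, 25.6% of CLK3 and 34.4% of CLK4. The median over 9262 genes was 31.2%, and 99.3% of those genes had less T than CLK1. The part of this base composition in the labelled shares was not tested. ATTTA, the core of AU-rich elements that are known to shorten the life of mRNAs, occurred in this stretch of 40.3% of genes. It was present once in CLK1 (chr2:200853097-200853125, minus strand) and once in CLK3 (chr15:74630060-74630088, plus strand). CLK4 had 2 copies (chr5:178602768-178602796 and chr5:178602683-178602711, minus strand), and CLK2 had none. The sites, with ATTTA in capitals and 12 bases on each side, read as follows in the GENCODE transcripts.
CLK1 site: aattgtaaagtgATTTAttcagaataaat
CLK3 site: ttgacccaagctATTTAtatgttataaag
CLK4 first site: attaattaggcaATTTAtgtctgtgataa
CLK4 second site: gaaatttccagaATTTAattgattggtta

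Total human counts per library were 14916671 to 17918971, and spike-in counts from Drosophila S2 RNA were 1817677 to 2212752. Labelled counts were 1410 and 1614 in the actinomycin D libraries and 53503 to 448401 in the other libraries. Levels below are in spike-in CPM, the counts of a gene per 1000000 spike-in counts of the same library. Drosophila RNA joined the samples after purification, so levels are per amount of RNA and show neither cell number nor RNA per cell. A loss of all RNA alike could go unseen. The K562 genes HBG1, a fetal globin, and PRAME, a tumor antigen, had 26080 to 29526 and 44266 to 47331 counts in the DMSO libraries. Markers of T cells (CD3E), B cells (MS4A1), monocytes (CD14) and hepatocytes (ALB) had at most 7 counts there, while the epithelial marker EPCAM had 1003 to 1116.

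In DMSO, the members differed widely in their labelled share, and the part of base composition in this was not tested. The labelled share is the percentage of a gene's reads that carried the label. CLK1 had a labelled share of 49.6% and 48.5% in the DMSO libraries, and CLK4 had 45.5% and 42.4%. CLK2 had 9.47% and 12.7%, and CLK3 had 6.43% and 6.26%. The shares of CLK1 and CLK4 lay far above those of CLK2 and CLK3, with no overlap between these pairs of genes. Among 10409 genes averaging 50 or more total counts in DMSO, the median share was 3.71%. Only 34 of these genes had a higher mean share than CLK1 and 51 a higher one than CLK4, against 1432 for CLK2 and 3157 for CLK3. The share of CLK4 rests on 20 labelled reads of 44 and 28 of 66 in the DMSO libraries, and its 95% Wilson intervals are accordingly wide. Intervals cover counting error only, and limits cover only that of the drug group.

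**Figure D1:**
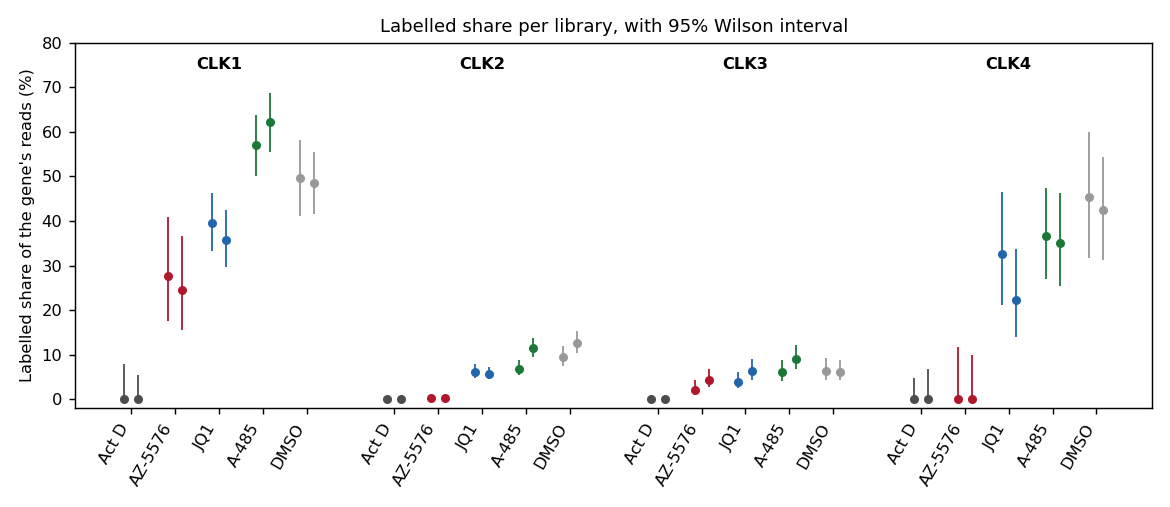
Labelled share of each CLK gene in percent (y axis) for each library of the 5 groups (x axis); points are libraries and lines are 95% Wilson intervals. CLK1 and CLK4 lie between 42.4% and 49.6% in DMSO, while CLK2 and CLK3 lie between 6.26% and 12.7%.

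Actinomycin D left no labelled read of any CLK gene. Labelled counts were 0 in both actinomycin D libraries for all 4 genes, against 64 and 96 for CLK1, 62 and 89 for CLK2, 25 and 27 for CLK3, and 20 and 28 for CLK4 in the DMSO libraries. A limit of 3 counts over the 2 libraries was set against the pooled DMSO counts, taken as exact. By this, labelled RNA was at least 60.2-fold lower for CLK1 and at least 56.8-fold lower for CLK2. For CLK3 it was at least 19.6-fold lower and for CLK4 at least 18.1-fold lower. All 4 members were called lower (edgeR quasi-likelihood test, Benjamini-Hochberg adjusted p under 0.05), as were 99.2% of the 7996 genes tested. With TMM scaling in place of the spike-in, none of the 4 was called (edgeR adjusted p 0.106 to 0.347). Of the 7996 genes, 628 were then called lower and 34 higher. TMM assumes that most genes are unaltered. It moved the median log2 fold change of all genes by 0.97 in this comparison, from −7.67 on the spike-in scale, so most genes were not centred on 0.

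AZ-5576 lowered labelled RNA of all members, but by very different amounts. For CLK1 the labelled level was 8.21 and 7.28 spike-in CPM with AZ-5576, from 15 labelled reads in each library, against 33.8 and 52.8 with DMSO. For CLK2 it was 1.09 and 0.971 with AZ-5576, from 2 reads in each library, against 32.7 and 49.0 with DMSO. For CLK3 it was 3.83 and 8.25 with AZ-5576, from 7 and 17 reads, against 13.2 and 14.9 with DMSO. Both AZ-5576 libraries lay below both DMSO libraries for each of these genes. CLK4 had no labelled read in either AZ-5576 library, against 10.6 and 15.4 with DMSO, and was at least 16.8-fold lower.

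The log2 fold change of labelled RNA with AZ-5576 was −2.47 ± 0.38 (SE) for CLK1 (edgeR adjusted p = 2.3e-10) and −5.23 ± 0.58 for CLK2 (edgeR adjusted p = 1.1e-18). For CLK3 it was −1.19 ± 0.55 (edgeR adjusted p = 0.0341), and this call was lost without AZ-5576 library 1 (−0.76, adjusted p = 0.215) or without either DMSO library. Together with CLK4 this made 4 of 4 members lower, beside 94.7% of all genes tested. The median over all genes was −5.94 (log2), so the log2 falls of CLK1, CLK2 and CLK3 were all smaller than that of the median gene, with CLK2 nearest to it. Pooled over its libraries, CLK3 kept 44.1% of its DMSO label and CLK1 kept 17.9%, while CLK2 kept 2.53%. The median of 4107 genes with at least 50 labelled DMSO counts was 1.88%, and 85 of these genes kept more than CLK3, 279 more than CLK1 and 1848 more than CLK2. TMM scaling moved the median of all genes by 3.25 (log2) and called 2206 of 7996 genes lower and 471 higher. With it the direction turned for CLK1 (1.03, edgeR adjusted p = 0.0391) and for CLK3 (2.30, edgeR adjusted p = 0.000585). CLK2 and CLK4 stayed lower.

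**Figure D2:**
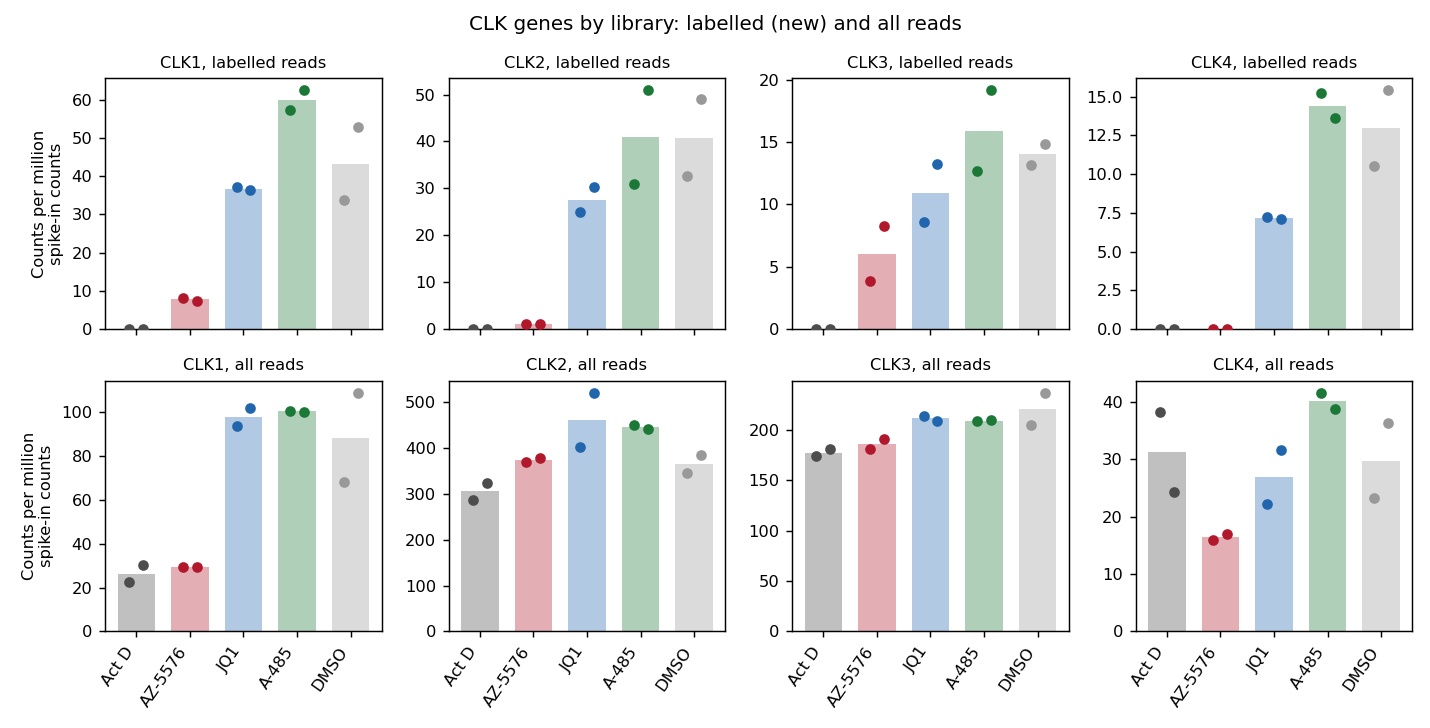
Labelled reads (top) and all reads (bottom) of each CLK gene in spike-in CPM (y axis), by group (x axis, Act D is actinomycin D); points are libraries and bars are means of 2 libraries. CLK4 has no labelled read with actinomycin D or AZ-5576, and all reads of CLK1 lie at 22.3 to 30.3 with these drugs, against 68.1 and 109 with DMSO.

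In total RNA the same 2 drugs separated the members further. CLK1, the kinase with the highest labelled share of the family in DMSO, fell with both. Its total level was 22.3 and 30.3 spike-in CPM with actinomycin D and 29.5 and 29.6 with AZ-5576, against 68.1 and 109 with DMSO. All 4 treated libraries lay below both DMSO libraries, although the DMSO libraries themselves differed by much. The log2 fold change was −1.74 ± 0.25 (SE) with actinomycin D (edgeR adjusted p = 1.6e-06) and −1.58 ± 0.25 with AZ-5576 (edgeR adjusted p = 9.4e-06). CLK1 was the one member called lower with either drug, where 19.7% of 14572 genes were called lower with actinomycin D and 12.9% with AZ-5576. CLK1 kept 29.8% of its DMSO mean with actinomycin D and 33.4% with AZ-5576, beside medians of 84.5% and 90.8% over the 10409 genes. Counted without the label, CLK1 reads stood at 22.3 and 30.3 with actinomycin D and 21.3 and 22.3 with AZ-5576, against 34.3 and 56.1 with DMSO.

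CLK4 had a labelled share close to that of CLK1 in DMSO, but its total level did not follow CLK1 with actinomycin D. The total level of CLK4 was 38.2 and 24.3 spike-in CPM with actinomycin D, against 23.2 and 36.3 with DMSO, and the groups overlapped. With AZ-5576 it was 15.9 and 17.0, below both DMSO libraries and below both actinomycin D libraries. The log2 fold change against DMSO was 0.07 ± 0.33 (SE) with actinomycin D (edgeR adjusted p = 0.917) and −0.85 ± 0.35 with AZ-5576 (edgeR adjusted p = 0.113), and neither was called. Set directly against actinomycin D, AZ-5576 gave a log2 difference of −0.92 ± 0.35 for CLK4 that missed the threshold (edgeR adjusted p = 0.216). No member was called in that comparison, where 2.37% of genes were called in either direction. CLK2 and CLK4 had an unadjusted p under 0.05 (2 of 4 members, and 2 of 4 with DESeq2). At that unadjusted level edgeR gave 294 of 14572 genes lower and 1291 higher.

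The contrast between both genes can be placed among other mRNAs with much label. Of the 10409 genes, 74 had a mean labelled share of at least 40% in DMSO, CLK1 and CLK4 among them. These 74 genes kept a median of 25.1% of their DMSO total with actinomycin D (quartiles 15.1% and 35.5%) and 26.5% with AZ-5576 (quartiles 14.7% and 39.6%). CLK4 kept 105% with actinomycin D and was 1 of 2 genes of the 74 at or above the DMSO mean. The other was the processed pseudogene AL355802.1 at 772%, named after its values were seen. With AZ-5576 CLK4 kept 55.2%. CLK4 reads without the label were 38.2 and 24.3 spike-in CPM with actinomycin D and 15.9 and 17.0 with AZ-5576, against 12.7 and 20.9 with DMSO, so both actinomycin D libraries lay above both DMSO libraries in unlabelled reads. These levels rest on 77 and 53 reads with actinomycin D and on 29 and 35 with AZ-5576, against 24 and 38 unlabelled reads with DMSO. Unlabelled reads were not tested on their own.

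**Figure D3:**
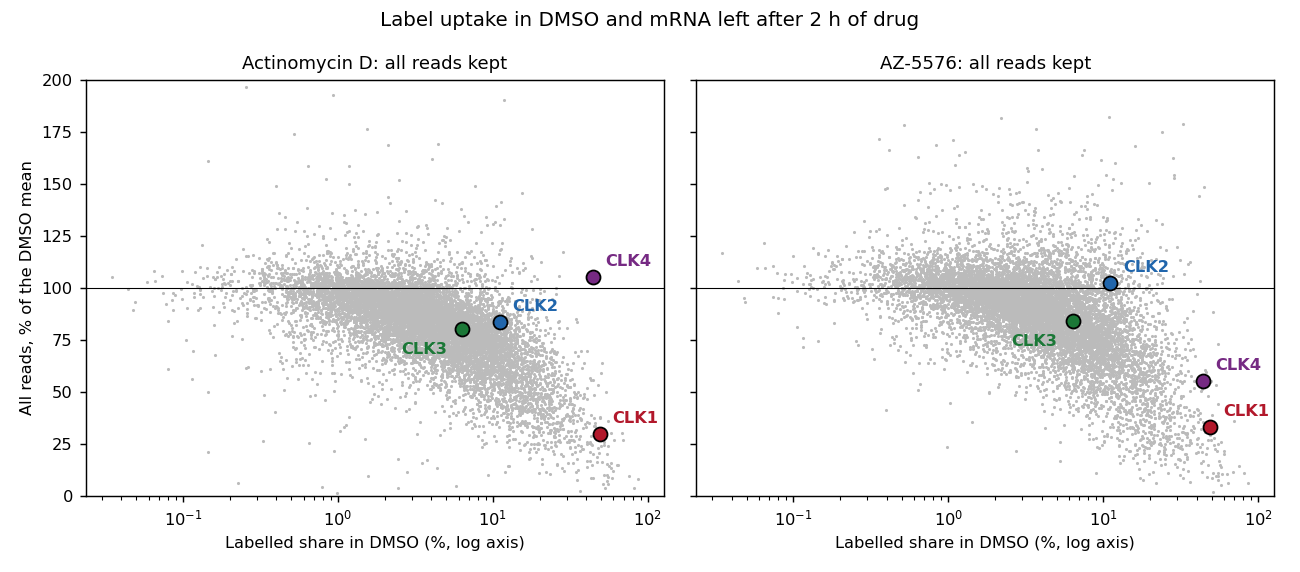
Total RNA kept with actinomycin D (left) and AZ-5576 (right), in percent of the DMSO mean (y axis), against the labelled share in DMSO in percent (x axis, log scale) for 10186 genes (grey) and the CLK genes (coloured); 223 genes with a share of 0 are not drawn and 8 and 6 genes lie above 200%. CLK1 lies at 29.8% and 33.4%, and CLK4 at 105% and 55.2%.

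CLK2 and CLK3, whose labelled shares were lower than those of CLK1 and CLK4 but above the median gene, kept most of their total RNA. CLK2 was at 286 and 324 spike-in CPM with actinomycin D and 368 and 379 with AZ-5576, against 346 and 385 with DMSO. The actinomycin D libraries lay below DMSO, and the AZ-5576 libraries lay within its range. The log2 fold change of CLK2 was −0.26 ± 0.13 (SE) with actinomycin D (edgeR adjusted p = 0.161) and 0.03 ± 0.13 with AZ-5576 (edgeR adjusted p = 0.925). CLK3 was at 174 and 181 with actinomycin D and 181 and 191 with AZ-5576, against 205 and 237 with DMSO. All treated libraries of CLK3 lay below both DMSO libraries, yet neither log2 fold change passed the test, with −0.32 ± 0.15 for actinomycin D (edgeR adjusted p = 0.124) and −0.25 ± 0.15 for AZ-5576 (edgeR adjusted p = 0.312). The median over all genes was −0.27 with actinomycin D and −0.15 with AZ-5576 (log2).

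The labelled share sets labelled against all reads of the same gene within a library and needs no spike-in. With actinomycin D it was 0% for all 4 genes, and all 4 were called lower, beside 98.6% of 7960 genes. With AZ-5576 the share of CLK1 was 27.8% and 24.6%, against 49.6% and 48.5% with DMSO. That of CLK2 was 0.297% and 0.256%, against 9.47% and 12.7% with DMSO, and that of CLK4 was 0 of 64 reads, which allows a share of up to 4.69%, against 45.5% and 42.4% with DMSO. CLK3 was at 2.11% and 4.33% with AZ-5576, against 6.43% and 6.26% with DMSO. For every member both AZ-5576 libraries lay below both DMSO libraries.

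Of these, 3 of 4 members were called lower with AZ-5576, beside 93.6% of genes. The log2 change in the ratio of labelled to unlabelled reads was −5.41 ± 0.68 (SE) for CLK2 (edgeR adjusted p = 5.6e-11) and −1.44 ± 0.69 for CLK1 (edgeR adjusted p = 0.0420). The call for CLK1 was lost when any of the 4 libraries was left out (adjusted p 0.0559 to 0.108). CLK3, at −1.02 ± 0.62, did not pass (edgeR adjusted p = 0.113) but did without AZ-5576 library 2 (−1.63, adjusted p = 0.0452).

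In every JQ1 and A-485 library, labelled RNA of each CLK gene lay above both AZ-5576 libraries, and its place relative to DMSO differed between the genes. CLK1 was at 37.1 and 36.4 labelled spike-in CPM in the JQ1 libraries, 57.4 and 62.5 in the A-485 libraries, against 33.8 and 52.8 with DMSO. The JQ1 libraries lay inside the DMSO range, and both A-485 libraries lay above it. CLK2 was at 24.9 and 30.3 in the JQ1 libraries, 31.0 and 50.9 in the A-485 libraries, against 32.7 and 49.0 with DMSO. CLK3 was at 8.59 and 13.3 in the JQ1 libraries, 12.7 and 19.1 in the A-485 libraries, against 13.2 and 14.9 with DMSO. CLK4 was at 7.23 and 7.10 in the JQ1 libraries, 15.2 and 13.6 in the A-485 libraries, against 10.6 and 15.4 with DMSO. For CLK2 and CLK4 both JQ1 libraries lay below both DMSO libraries, and for CLK3 they overlapped, as did the A-485 and DMSO libraries of all these genes.

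No member was called with JQ1 in labelled RNA by edgeR or DESeq2, while 28.6% of genes were called lower and 1.26% higher. None had an unadjusted p under 0.05 (0 of 4 with each tool), where edgeR gave 3124 of 7996 genes lower and 152 higher. The log2 fold changes were −0.23 ± 0.31 (SE) for CLK1, −0.56 ± 0.34 for CLK2, −0.36 ± 0.51 for CLK3 and −0.85 ± 0.59 for CLK4, beside a median of −0.85 over all genes. With TMM scaling, which moved the median by 0.83, the sign with JQ1 turned for CLK1 (0.60), CLK2 (0.27) and CLK3 (0.47), again without a call. That scaling called 415 of 7996 genes lower and 444 higher with JQ1. With A-485 the fold changes were 0.47 ± 0.30 for CLK1, 0.01 ± 0.33 for CLK2, 0.18 ± 0.50 for CLK3 and 0.15 ± 0.55 for CLK4, beside a median of −0.09. None was called by edgeR or DESeq2, beside 4.86% of genes called lower and 0.163% called higher. An unadjusted p under 0.05 was found for 0 of 4, where edgeR gave 850 of 7996 genes lower and 177 higher. With these standard errors, a missed threshold does not show that labelled RNA of the CLK genes was unaltered.

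Between A-485 and JQ1, labelled CLK1 was higher with A-485 in both libraries, at 57.4 and 62.5 against 37.1 and 36.4 with JQ1. The log2 difference was 0.70 ± 0.30 (SE, edgeR adjusted p = 0.0610), and it was close to the median of 0.72 over all genes. None of the 4 members passed, beside 24.8% of genes higher and 3.14% lower with A-485. CLK1 had an unadjusted p under 0.05, and DESeq2 called it (adjusted p = 0.0498). By edgeR 2727 of 7996 genes were higher and 386 lower at that unadjusted level. With TMM scaling the difference for CLK1 was −0.0024 (log2).

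**Figure D4:**
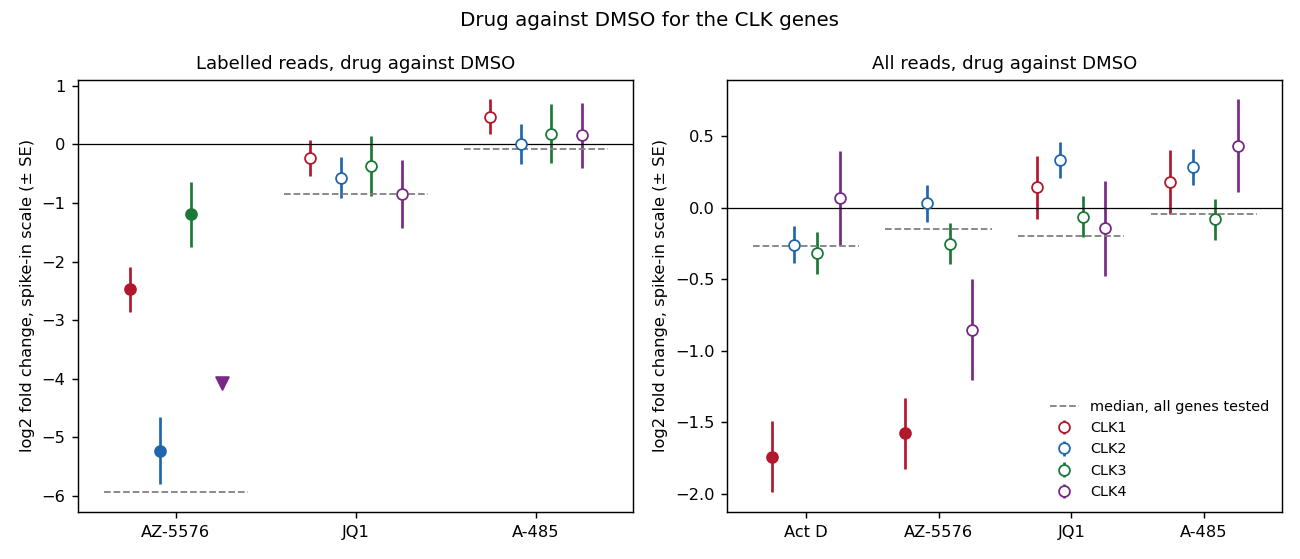
Log2 fold change against DMSO on the spike-in scale (y axis) for labelled reads (left) and all reads (right) by drug (x axis); points are CLK genes with SE bars, filled where edgeR called them, and dashed lines are medians of all genes tested. The triangle is the bound for CLK4 with AZ-5576, at least 16.8-fold lower, and actinomycin D is left out of the left panel because all labelled counts were 0; CLK1 at −1.74 and −1.58 holds the filled points in the right panel.

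In total RNA no CLK gene was called with JQ1 or A-485. CLK1 was at 93.5 and 102 spike-in CPM in the JQ1 libraries, 100.5 and 100.3 in the A-485 libraries, against 68.1 and 109 with DMSO. CLK2 was at 402 and 520 in the JQ1 libraries, 450 and 441 in the A-485 libraries, against 346 and 385 with DMSO. For CLK1 the treated libraries lay inside the DMSO range, and for CLK2 all 4 lay above it. CLK3 was at 214 and 209 in the JQ1 libraries, 209 and 210 in the A-485 libraries, against 205 and 237 with DMSO. CLK4 was at 22.1 and 31.7 in the JQ1 libraries, 41.6 and 38.8 in the A-485 libraries, against 23.2 and 36.3 with DMSO. CLK3 stayed inside its DMSO range, and CLK4 overlapped DMSO with JQ1 but lay above it in both A-485 libraries.

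CLK2 came nearest to a call. Its log2 fold change in total RNA was 0.34 ± 0.13 (SE) with JQ1 (edgeR adjusted p = 0.0935) and 0.29 ± 0.13 with A-485 (edgeR adjusted p = 0.575). No member was called with JQ1, where 7.35% of genes were lower and 0.837% higher. CLK2 was the 1 of 4 with an unadjusted p under 0.05 by edgeR and by DESeq2. At that unadjusted level edgeR gave 3211 of 14572 genes lower and 294 higher. No member was called with A-485, where 1.2% of genes were lower and 0.0343% higher. Again CLK2 was the 1 of 4 with an unadjusted p under 0.05 by either tool, where edgeR gave 843 genes lower and 198 higher. CLK2 was called higher with JQ1 in 4 of 11 alternatives. These were TMM scaling (0.53, adjusted p = 0.00476), the total of human counts as library size (0.47, adjusted p = 0.0104), the replicate number as a block (0.33, adjusted p = 0.0354) and the fit without JQ1 library 1 (0.51, adjusted p = 0.0151). A-485 against JQ1 gave no call among the 4 members by edgeR or DESeq2, beside 5.38% of genes higher and 1.2% lower. It gave no member an unadjusted p under 0.05 either, where edgeR gave 2395 genes higher and 433 lower. The largest difference among the members was 0.58 ± 0.32 (log2) for CLK4 (edgeR adjusted p = 0.332).

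With JQ1 and A-485 the labelled shares of CLK1 and CLK4 again lay above those of CLK2 and CLK3 in every library. CLK1 was at 39.6% and 35.8% in the JQ1 libraries, 57.1% and 62.3% in the A-485 libraries, against 49.6% and 48.5% with DMSO. Both JQ1 libraries lay below DMSO and both A-485 libraries above it. CLK4 was at 32.7% and 22.4% in the JQ1 libraries, 36.6% and 35.1% in the A-485 libraries, against 45.5% and 42.4% with DMSO, so all treated libraries lay below DMSO. CLK2 was at 6.19% and 5.82% in the JQ1 libraries, 6.88% and 11.5% in the A-485 libraries, against 9.47% and 12.7% with DMSO. CLK3 was at 4.01% and 6.33% in the JQ1 libraries, 6.08% and 9.13% in the A-485 libraries, against 6.43% and 6.26% with DMSO. Both JQ1 libraries of CLK2 lay below DMSO, and the other groups of these genes overlapped DMSO. None of the 4 members was called in either comparison by edgeR or by limma on the log2 ratio, beside 15.4% of genes lower and 0.364% higher for JQ1, and 2.64% lower and 0.0251% higher for A-485. CLK2 with JQ1 had an unadjusted p under 0.05 by edgeR (1 of 4), and 0 of 4 had one with A-485 or by limma. Of 7960 genes, edgeR gave 2271 lower and 96 higher with JQ1 at that unadjusted level, and 655 and 152 with A-485.

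Kinases that share substrates or ancestry with the CLK proteins gave the nearest setting. Of 17 such kinases, including the SRPK, DYRK and HIPK families, 15 were tested in total RNA, and 6 fell with actinomycin D and 4 with AZ-5576, beside 19.7% and 12.9% of all genes. DYRK1A, a dual-specificity kinase, changed by −1.22 with actinomycin D and −1.14 with AZ-5576 in total RNA (log2, both called), and its relative DYRK1B by −2.07 and −2.35 (both called). SRPK1, which phosphorylates SR proteins in the cytoplasm, was at −0.07 and −0.03, and SRPK2, its close relative, at −0.62 and −0.37 (log2, none called). PRPF4B, a kinase of the spliceosome, fell by 0.57 on the log2 scale with both drugs, and CDK12, which phosphorylates RNA polymerase II, changed by −0.54 and −0.43 (all called). In labelled RNA, 10 of these kinases were tested, and 9 fell with AZ-5576, beside 94.7% of all genes. JQ1 lowered 3 of the 10, beside 28.6% of all genes, with log2 fold changes of −2.26 for DYRK1A, −1.91 for DYRK2 and −1.35 for CDK13, and A-485 lowered 1, DYRK1A, at −1.38, beside 4.86% of all genes. With TMM scaling, labelled RNA gave 3 lower and 1 higher with AZ-5576, 1 lower and 1 higher with JQ1, and 1 lower with A-485. Labelled shares in DMSO were 3.02% and 3.70% for SRPK1, 11.9% and 10.5% for DYRK1A and 12.8% and 14.1% for PRPF4B. With TMM scaling the kinases lower in total RNA numbered 2 with actinomycin D and 3 with AZ-5576; 1 was higher with AZ-5576. TMM moved the median log2 fold change of all genes in total RNA by 0.25 with actinomycin D, 0.15 with AZ-5576 and 0.20 with JQ1.

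SR proteins are the substrates of the CLK kinases. In total RNA 8 of 13 tested fell with actinomycin D and 7 with AZ-5576, beside 19.7% and 12.9% of all genes, with a median log2 fold change of −0.35 and −0.31 for the list, against −0.27 and −0.15 for all genes. SRSF3, which regulates splicing and mRNA export, fell by 0.35 on the log2 scale with actinomycin D, and its −0.26 with AZ-5576 did not pass. SRSF7, a related export adaptor, was at −0.26 with actinomycin D, which did not pass, and fell by 0.31 with AZ-5576. SRSF9 was at −0.07 and −0.02 and did not pass. Labelled RNA of 5 of 13 SR proteins fell with JQ1, beside 28.6% of all genes, with log2 fold changes from −2.28 for SRSF8 to −0.79 for SRSF10, and with SRSF1, SRSF4 and SRSF11 between them. With A-485, 0 fell and 1 rose in labelled RNA, SRSF6 at 0.93, beside 4.86% of all genes lower and 0.163% higher. With TMM scaling, 3 fell in total RNA with actinomycin D and 4 with AZ-5576, beside 1153 and 1210 of all 14572 genes. Labelled RNA then gave 3 lower and 5 higher with JQ1, beside 415 lower and 444 higher of 7996 genes.

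Of 18 other splicing proteins with domains rich in arginine and serine, 17 were tested in labelled RNA and 11 fell with JQ1, beside 28.6% of all genes. Their median log2 fold change was −0.94, against −0.85 for all genes. With TMM scaling 1 fell and 1 rose, beside 415 lower and 444 higher of 7996 genes. U2AF2, which binds the polypyrimidine tract of introns, fell by 1.55 on the log2 scale in labelled RNA with JQ1, while SRRM2, also of nuclear speckles, was at −0.44 and LUC7L3, a U1-associated protein, at −0.22 without a call. In total RNA 9 of 17 fell with actinomycin D and 7 each with AZ-5576 and JQ1, beside 19.7%, 12.9% and 7.35% of all genes. The median log2 fold changes of the list were −0.33, −0.30 and −0.30, against −0.27, −0.15 and −0.19 for all genes. SON, a scaffold of nuclear speckles, fell by 0.52 on the log2 scale with actinomycin D and by 0.51 with AZ-5576. With TMM scaling actinomycin D gave 3 lower and 2 higher in total RNA, AZ-5576 gave 6 lower and 1 higher, and JQ1 gave 2 lower. Over all 14572 genes the counts were 1153 lower and 791 higher, 1210 and 546, and 288 and 214, in the same order. Of 8 genes listed for SR protein transport or for phosphatases and their subunits, 3 fell in total RNA with actinomycin D (PPP1R10, PPP1R8 and PTPN1). With AZ-5576, 2 fell (PPP1R10 and PPP1R8). The shares over all genes were the same 19.7% and 12.9%. PPP1R10, a nuclear subunit of protein phosphatase 1, changed by −1.33 with actinomycin D, −1.55 with AZ-5576, but 1.51 with JQ1 in total RNA (log2, all called). With TMM scaling 1 fell and 1 rose with actinomycin D, and 2 fell with AZ-5576, beside the TMM counts over all genes just given. TNPO3, which imports SR proteins into the nucleus, fell by 0.94 on the log2 scale in labelled RNA with JQ1, and the phosphatases PTPN1 and PPP1CA were at −0.43 and −0.41 without a call.

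Genes whose changes were most like those of a member were found from 7 log2 fold changes against DMSO, 3 in labelled and 4 in total RNA, over the 2066 or 2067 other genes that averaged 50 or more labelled counts in DMSO. The measure was the root mean square difference in log2 units. CLK1 was nearest to FBXO5, an inhibitor of the anaphase-promoting complex, at 0.34, with AC108161.1 and ARID4B at 0.49 each, against a median of 1.47 over all genes compared. FBXO5 changed by −1.83 with actinomycin D and −1.75 with AZ-5576 in total RNA (log2), and its labelled shares were 31.8% and 25.9% in DMSO. CLK2 was nearest to the ion channel gene TRPM7 (0.18), to UBE2D2 (0.20) and to EMC6 (0.21), against a median of 0.83. CLK3 was nearest to BPTF (0.22), SND1 (0.23) and RPL38 (0.25), against a median of 1.67. CLK4 was nearest to EXOSC6 (0.25), PPIF (0.30) and MFAP1 (0.34), against a median of 1.15, but its likeness rests in part on a fitted value for labelled counts of 0. Labelled shares in DMSO were 5.70% and 5.01% for EXOSC6, 3.98% and 2.38% for PPIF and 14.8% and 19.8% for MFAP1. Those of CLK4 were 45.5% and 42.4%. CLK3 and CLK4 themselves averaged under 50 labelled counts in DMSO.

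Neighbours at the same loci may bear on the counts, since the strand setting of the counting is not given in the sources used here. EDC3 lies on the opposite strand and overlaps the CLK3 locus by 14857 bases, and HCN3 overlaps CLK2 by 909 bases on the opposite strand. The EDC3 overlap begins at chr15:74630558. That is past the CLK3 ATTTA site at chr15:74630060-74630088, which lies 130 bases from the end of the principal transcript. The HCN3 overlap begins at chr1:155277583, near the 5′ end of CLK2. Whether reads of these neighbours were counted for CLK2 or CLK3 was not tested. EDC3 had no labelled read with AZ-5576, against 16 and 13 with DMSO, whereas CLK3 kept 7 and 17 with AZ-5576, against 25 and 27 with DMSO. The processed copy CLK2P1 had 2 counts over all libraries and CLK3P2 had 0.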

How the data were processed

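The deposited K562 SLAM-seq tables give raw counts per gene of all human reads, human reads with T-to-C conversions (labelled) and Drosophila reads. The values are whole-number counts, not normalised, as the authors deposited them and labelled counts never exceeded total counts. Per the labels' protocols, iodoacetamide modified the RNA, 5% S2 RNA was added and QuantSeq 3′ libraries were made. Per the submitters' processing notes, Trim Galore 0.6.5, bcl2fastq 2.17.1.14 and bedtools were used with hg38 and dm6. For the aligner, the conversion caller and the strand setting, the sources used here give no name.

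Groups came from the sample titles. Counts were fitted with edgeR 4.0.16 in R 4.3.3 (quasi-likelihood, robust, two-sided), with spike-in totals as library sizes and all 10 libraries in one fit per measure. The fits kept genes that reached 10 counts in 2 or more libraries. These were 7996 for labelled RNA, 14572 for total RNA and 7960 for the share, with 5 residual degrees of freedom each. P-values were adjusted over all genes (Benjamini-Hochberg, threshold 0.05). The common coefficient of variation was 24.8%, 10.9% and 17.8% in these fits. The share was tested as the ratio of labelled to unlabelled counts, with a term per library. A group at 0 counts was given a limit of 3 counts over the group, and Wilson intervals are at 95%. The fits were tested on simulated data. Libraries of a group differed beyond sampling noise (chi-square per degree of freedom 4.56 to 15.2), so they entered the fits separately. They were pooled for the percentage of DMSO label kept and for the limits at 0 counts. Alternatives were TMM, total human counts, DESeq2 1.42.0 or limma 3.58.1, other filters, a replicate block, only the groups compared, and each library left out. From each gene list the 3 tested genes with the highest mean total count were named, with SRPK1, SRPK2, DYRK1A and PRPF4B added; further genes of the lists were named after their values were seen. The members and lists were chosen with earlier results of these data known, and the motifs and the 40% share threshold were set after seeing the data. A further marker on the list used to check the cell line is not reported here.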

Additional observations from a re-analysis of the deposited data

How the results depend on the processing

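Of 610 values of single CLK genes under the alternatives, 552 kept their direction and their side of the threshold, 33 turned sign without a call in either fit (10 of them under TMM), 15 lost a call, 8 gained one and 2 called values turned. Total CLK1 stayed lower in 11 of 11 alternatives, from −2.04 to −1.36 (log2) with actinomycin D and −1.88 to −1.20 with AZ-5576. TMM gave 0 members in labelled RNA with actinomycin D, where it called 628 of 7996 genes lower and 34 higher. It also turned labelled CLK1 (1.03) and CLK3 (2.30) with AZ-5576. In the latter comparison it moved the median log2 fold change of all genes by 3.25, from −5.94 on the spike-in scale. At least 30 counts left 2 members tested, and 2 called, in labelled RNA with actinomycin D and AZ-5576 and in the share with actinomycin D. Labelled RNA of A-485 against JQ1 gained 1 call, CLK1, with DESeq2, with at least 30 counts and with only the 2 groups (adjusted p 0.0498, 0.0390 and 0.0315). Total RNA with JQ1 gained 1 call, CLK2, with TMM, total human counts, the replicate block and without JQ1 replicate 1; the counts left after leaving out 1 library were 0 to 1. The cause was not tested. Labelled CLK3 with AZ-5576 lost its call with no filter (adjusted p = 0.0639), with only the 2 groups (0.0509), without DMSO library 1 (0.0699) and library 2 (0.125).

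The labels do not say that a replicate number marks a shared culture or day, and same-numbered libraries were not treated as pairs. Their deviations correlated at −0.061 to 0.227 over 10 pairs of groups in total RNA, with 6 over 0.1, and at −0.021 to 0.123 over 6 pairs in labelled RNA, with 1 over 0.1. With the replicate block, total CLK2 was called higher with JQ1 (0.33, adjusted p = 0.0354), and the share of CLK1 with AZ-5576 missed the threshold (adjusted p = 0.0563, and 0.145 with no filter).

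CLK3 and CLK4 had at most 28 labelled reads in a DMSO library, and the SE of their labelled log2 fold changes was 0.50 to 0.59 with JQ1 and A-485. The size of change detectable at this depth was not tested. Transcript forms, cell number and the strand of reads cannot be read from these tables.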

Other observations

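A small RNA gene inside CLK1 was also counted. RF00019 (ENSG00000252759), annotated as miscellaneous RNA, lies in an intron of CLK1 on the same strand and overlaps no CLK1 exon. It had 3 and 7 labelled counts of 8 and 10 with AZ-5576, 11 and 12 of 12 and 13 with JQ1, and 13 and 17 of 25 and 30 with A-485, against 18 and 10 of 19 and 14 with DMSO. With actinomycin D it had 0 labelled counts of 3 and 7. Most of its reads in DMSO, JQ1 and A-485 carried the label. Its labelled share was above that of CLK1 itself in each DMSO, JQ1 and AZ-5576 library, but below it in both A-485 libraries. These counts are small and were not tested. Whether the reads came from unspliced CLK1 RNA rather than from a separate small RNA was not tested either.

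Within the summed labelled reads of the 4 CLK genes, CLK1 held 15 of 24 and 15 of 34 with AZ-5576, against 64 of 171 and 96 of 240 with DMSO. CLK3 held 7 of 24 and 17 of 34 with AZ-5576, against 25 of 171 and 27 of 240 with DMSO. CLK2 held 2 of 24 and 2 of 34 with AZ-5576, against 62 of 171 and 89 of 240 with DMSO. Within the summed total reads, CLK1 made up 4.29% and 5.42% with actinomycin D and 4.97% and 4.81% with AZ-5576, against 10.6% and 14.2% with DMSO.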
